A study of Mus musculus with 4 samples.

Results

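GABAergic interneurons are the inhibitory neurons of the hippocampus, and 10 of their marker genes are described here: Gad1, Gad2, Sst, Cort, Vip, Npy, Cck, Pvalb, Calb2 and Reln. The genes were chosen by name from a list of known markers, and a probe was taken as a member when its transcript accession was annotated to 1 of the 10 symbols. The array carried 12 such probes, 2 each for Calb2 and Reln and 1 for every other gene. All 12 were well above background on all 4 arrays, so the 10 genes are reported in full, out of 16794 named genes with signal. The RNA came from the dorsal hippocampus of female mice, collected when a series of behavioural tests had ended. The groups were mice on 20-fold iodine intake (replicates 2 and 3) and control mice (replicates 2 and 3), each sample on its own 1-colour Cy3 array. The thyroid builds its hormones from iodine, and the study's title names excessive intake and brain development as its question. Strain, age, length of the intake and whether a replicate was 1 animal are not given in the sources used here, so p-values reflect only how these samples vary, and that variation may be technical.

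Interneurons make GABA, the main inhibitory transmitter, from glutamate. They form a minority of hippocampal neurons and fall into subtypes that are told apart by a neuropeptide or a calcium-binding protein. Parvalbumin cells inhibit the cell bodies of pyramidal neurons, somatostatin cells inhibit their dendrites, and many vasoactive intestinal peptide and calretinin cells inhibit other interneurons.

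Values are log2 processed signals minus the log2 75th percentile of the same array, so that 0 is the signal that 75% of its non-control probes stay below. That percentile was 149.7 and 144 intensity units on the iodine arrays and 159 and 154 on the control arrays. Signal well above background was flagged for 37535 to 37921 of 56605 probes per array, and no spot was saturated. A single slide and a single scan held all 4 arrays, with iodine samples in slide columns 3 and 4 and controls in columns 1 and 2, so slide position and group cannot be told apart. Signals of different probes depend on the probe and are not set against each other. In this bulk tissue, fewer cells of a type and less RNA per cell cannot be told apart.

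No interneuron marker passed limma's adjusted p of 0.05, but 8 of the 10 genes had a lower mean signal in 20-fold iodine hippocampus (Npy and Calb2 were higher). The same 8 were lower with normexp correction and with quantile normalization, and Npy joined them, for 9, when arrays were centred on the median of the probes detected on all 4. Among all 38231 probes tested, 47.6% had a difference below 0, and taking only the brightest probe of each of the 16794 named genes, as for the members, 54.4% had. The median difference of the 10 genes was -0.12 on the log2 scale, a median change of -7.86%, against 0.01 over all probes and -0.01 over all named genes. It was -0.07 without control replicate 2 and -0.19 without control replicate 3.

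Cort, at a difference of -0.32, and Calb2, at 0.35 by its brighter probe, marked the ends of the range. Over all probes 0 passed (0%), with 3448 at an unadjusted limma p under 0.05, of which 34.8% were lower in iodine, or 45.7% when centred on the median of detected probes. The same fit with an intensity trend and robust variances called 53 probes, and normexp correction called 25, with 0 member probes among them in either case. By unadjusted p under 0.05, 1 of the 12 member probes (Cort) was lower and 0 were higher, where 3.14% and 5.88% of all probes were. Both iodine arrays lay below both control arrays in 4 of the 12 member probes (Gad1, Pvalb, Sst and Cort), or 33.3%, against 18.5% of all probes. They lay above both controls in 1 of the 12, a Calb2 probe, against 23.2% of all probes. By the brightest probe of each gene, they lay below in 4 of the 10 genes and above in 0. Among all named genes those shares were 21.9% and 17.9%. An exact permutation test of 2 arrays against 2 cannot go below p = 0.333, so none is given for single genes.

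**Figure D1:**
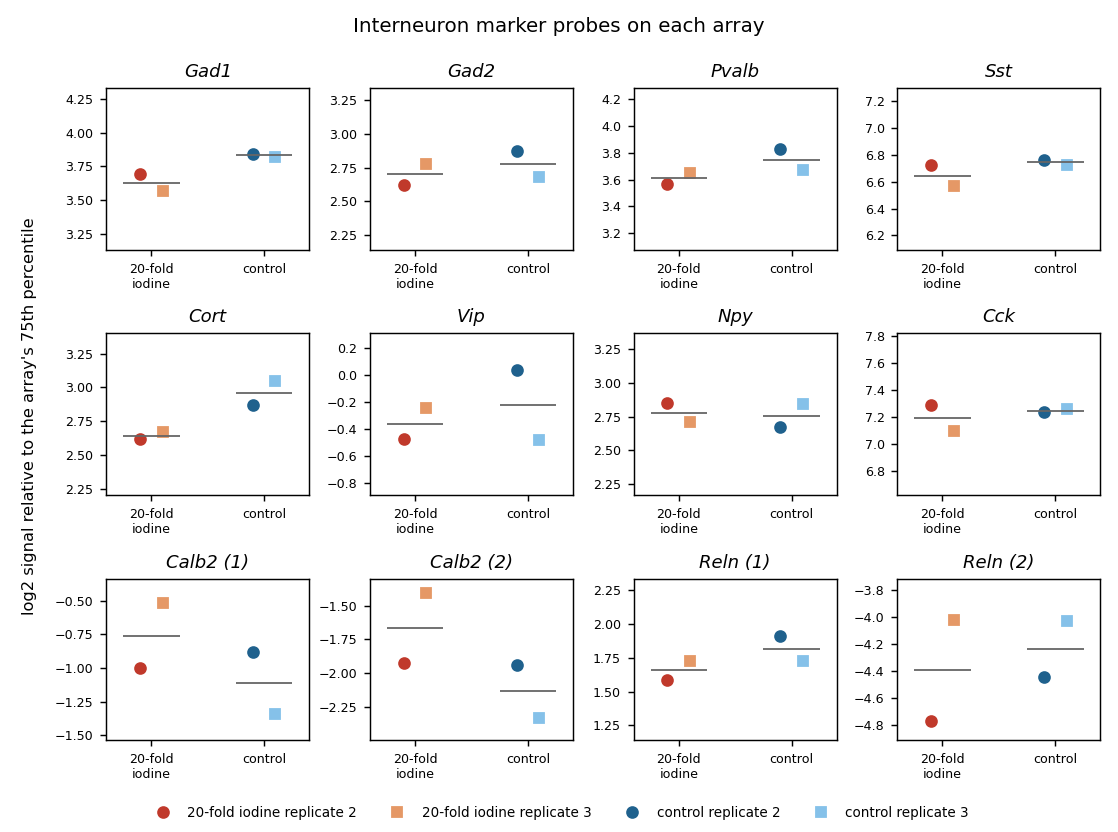
Log2 signal relative to the array's 75th percentile (vertical axis) of the 12 interneuron marker probes on each array, with 20-fold iodine on the left and control on the right of each panel and a line at each group's mean of 2 arrays. Every panel spans the same number of log2 units, and for Calb2 and Reln (1) is the brighter and (2) the dimmer probe. Gad1 and Cort lie lower on both iodine arrays, and Calb2 spreads as widely within the groups as between them.

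Gad1 and Gad2 encode the 2 glutamate decarboxylases that make GABA, and they mark nearly all interneurons. Gad1 stood at 3.69 and 3.57 in iodine replicates 2 and 3, against 3.84 and 3.82 in control replicates 2 and 3. Both iodine arrays were thus below both controls, and the controls differed by 0.02 while the iodine arrays differed by 0.12. The Gad1 difference was -0.20 ± 0.09 (SE, n = 2 per group), or -13.0% with a 95% confidence interval of -26.4 to 2.70% (limma, adjusted p = 0.596). It kept its sign under all 13 alternatives, between -0.26 and -0.14. The span of Gad1 also holds Gad1os, an annotated long noncoding RNA, and where the probe lies relative to it was not examined. Gad2 (Mir3967), Cck (Gm38661) and Reln (2 pseudogenes and a small nuclear RNA) likewise span other annotated genes.

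Gad2 stood at 2.62 and 2.78 in iodine replicates 2 and 3, against 2.88 and 2.68 in control replicates 2 and 3. The groups overlapped, since iodine replicate 3 was above control replicate 3. The difference was -0.07 ± 0.12 (SE), with an interval of -23.7 to 18.1% (limma, adjusted p = 0.88). It was 0.003 without iodine replicate 2 and 0.02 without control replicate 2.

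The 5 neuropeptide markers come next. Sst (somatostatin) and Cort (cortistatin) encode related peptides that act on the same receptors. Vip encodes vasoactive intestinal peptide, whose gene, like Sst, is a textbook target of cyclic AMP signalling through the factor CREB. The 250 bases upstream of the start of these 3 genes are shown. The letters of the element that CREB binds, or of its core, occur in each. Letters are from RefSeq, build GRCm38.p6, written 5′ to 3′ on the gene's strand. Capitals mark TGACGTCA, the full element, or, where that is absent, its TGACG core (CGTCA on the other strand).

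Sst, chr16:23890845-23891094, minus strand: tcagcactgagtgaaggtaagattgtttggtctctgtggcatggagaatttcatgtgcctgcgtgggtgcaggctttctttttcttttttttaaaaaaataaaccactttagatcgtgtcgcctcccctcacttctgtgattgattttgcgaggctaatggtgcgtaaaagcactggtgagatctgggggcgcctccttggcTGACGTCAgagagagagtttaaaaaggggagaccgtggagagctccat

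Cort, chr4:149126764-149127013, minus strand: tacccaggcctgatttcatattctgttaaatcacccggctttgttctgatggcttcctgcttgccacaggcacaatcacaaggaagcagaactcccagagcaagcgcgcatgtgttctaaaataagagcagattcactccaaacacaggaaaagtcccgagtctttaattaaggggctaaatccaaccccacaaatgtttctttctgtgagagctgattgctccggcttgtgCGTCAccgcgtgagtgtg

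Vip, chr10:5638968-5639217, plus strand: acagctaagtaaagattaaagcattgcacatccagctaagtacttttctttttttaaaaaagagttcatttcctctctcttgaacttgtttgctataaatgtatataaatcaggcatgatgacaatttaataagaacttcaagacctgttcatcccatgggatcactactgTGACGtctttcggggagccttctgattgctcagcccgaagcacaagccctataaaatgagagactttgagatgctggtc

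In Sst the full element began 48 bases before the start, in Cort the core began 18 bases and in Vip 79 bases before it. Of the 10 genes, 9 matched the promoter table. On either strand of the same 250 bases, TGACGTCA occurred in 1 of the 9 (Sst) and in 1.55% of all 32851 promoters. TGACG, which the full element contains, occurred in 5 of the 9 (Gad2, Sst, Cort, Vip and Cck) and in 17.8% of all promoters. A match is a run of letters, and binding was not measured.

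Cort had the member probe with the smallest p. It stood at 2.62 and 2.67 in iodine replicates 2 and 3, against 2.87 and 3.05 in control replicates 2 and 3. The iodine arrays lay within 0.05 of each other and below both controls, which differed by 0.18. The Cort difference was -0.32 ± 0.10 (SE, n = 2 per group), or -19.7% with an interval of -33.4 to -3.24%, which is not adjusted for the number of probes (limma, adjusted p = 0.533). Over all alternatives it ranged from -0.41 to -0.23, and the smallest adjusted p was 0.292.

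Sst stood at 6.72 and 6.57 in iodine replicates 2 and 3, against 6.76 and 6.72 in control replicates 2 and 3. Iodine replicate 2 (6.7205) fell just below control replicate 3 (6.7215), so the separation rests on 1 array. The Sst difference was -0.10 ± 0.09 (SE), with an interval of -21.8 to 11.6% (limma, adjusted p = 0.791). It was -0.02 without iodine replicate 3 and -0.17 without iodine replicate 2.

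Vip stood at -0.48 and -0.25 in iodine replicates 2 and 3, against 0.04 and -0.48 in control replicates 2 and 3. The 2 controls held the highest and the lowest Vip signals of the 4 arrays. The difference of -0.14 ± 0.21 (SE) had an interval of -38.9 to 35.0% (limma, adjusted p = 0.878), and it turned to 0.12 without control replicate 2.

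Npy encodes neuropeptide Y, found in many somatostatin cells and in neurogliaform cells. It stood at 2.85 and 2.71 in iodine replicates 2 and 3, against 2.67 and 2.84 in control replicates 2 and 3. The groups overlapped almost wholly, and the difference of 0.02 ± 0.11 (SE) had an interval of -17.4 to 24.5% (limma, adjusted p = 0.971). Its sign turned under 3 of 13 alternatives.

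Cck encodes cholecystokinin, which marks a class of basket cells but is also made by pyramidal cells of the mouse. It was the only member printed 10 times on each array, which gives the spread between spots of 1 sample. That spread was 0.03 and 0.06 (SD, log2) on the iodine arrays and 0.04 and 0.04 on the controls, over 9 or 10 spots each. Cck averaged 7.29 and 7.10 in iodine replicates 2 and 3, against 7.24 and 7.26 in control replicates 2 and 3. Iodine replicate 2 was the highest array and iodine replicate 3 the lowest, a gap of 0.19 that is larger than the spot spread. The difference of -0.05 ± 0.10 (SE) had an interval of -20.3 to 16.3% (limma, adjusted p = 0.903) and was 0.04 without iodine replicate 3.

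Among the calcium-binding proteins, Pvalb encodes parvalbumin, the marker of fast-spiking basket and axo-axonic cells. It stood at 3.56 and 3.65 in iodine replicates 2 and 3, against 3.82 and 3.67 in control replicates 2 and 3. Both iodine arrays were below both controls, narrowly so for iodine replicate 3 and control replicate 3. The difference was -0.14 ± 0.10 (SE), with an interval of -24.5 to 9.08% (limma, adjusted p = 0.717), and it ranged from -0.22 to -0.06 over the alternatives.

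Calb2 encodes calretinin, which marks interneurons that inhibit other interneurons, and which some mouse mossy cells and Cajal-Retzius cells also make. Its brighter probe (A_51_P311436) stood at -1.004 and -0.52 in iodine replicates 2 and 3, against -0.88 and -1.34 in control replicates 2 and 3. Its dimmer probe (A_52_P556433) stood at -1.92 and -1.41 in iodine replicates 2 and 3, against -1.94 and -2.33 in control replicates 2 and 3. On both probes iodine replicate 3 was the highest array and control replicate 3 the lowest, while the other 2 arrays lay between them.

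The Calb2 differences were 0.35 ± 0.24 and 0.47 ± 0.23 (SE, n = 2 per group), with intervals of -19.3 to 101% and -11.1 to 115% (limma, adjusted p = 0.715 and 0.632). The 2 probes read 1 transcript in the same samples and are not independent. Both stayed above 0 under every alternative in which they were tested, from 0.11 to 0.59 for the brighter and from 0.21 to 0.72 for the dimmer. The low ends, 0.11 and 0.21, came without iodine replicate 3. Arrays of 1 group differed by 0.39 to 0.51, a spread similar in size to the difference between groups.

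Reln encodes reelin, a secreted glycoprotein that guides neuronal layering and that interneurons of the outer layers and Cajal-Retzius cells release in the adult. Its brighter probe (A_51_P365369) stood at 1.59 and 1.73 in iodine replicates 2 and 3, against 1.91 and 1.73 in control replicates 2 and 3. Control replicate 2 stood above the other 3 arrays, and the groups overlapped at iodine replicate 3. The difference was -0.16 ± 0.11 (SE), with an interval of -27.3 to 10.2% (limma, adjusted p = 0.715). It was -0.07 without control replicate 2, -0.09 without iodine replicate 2 and -0.25 without control replicate 3. The second probe (A_66_P108810) was near the floor of detection, at 5.49 and 8.89 intensity units in iodine replicates 2 and 3, against 7.30 and 9.46 in control replicates 2 and 3. The lowest signals called well above background were 4.47 to 4.63 units. Its difference of -0.16 ± 0.30 (SE) turned sign under 3 of 11 alternatives (limma, adjusted p = 0.906).

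The intervals show what 2 arrays per group could measure. For 7 of the 12 probes the 95% interval excluded a change of 1.5-fold in either direction, and for 11 of the 12 it included 0. The exceptions to the first count were Cort, Vip, both Calb2 probes and the dim Reln probe.

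**Figure D2:**
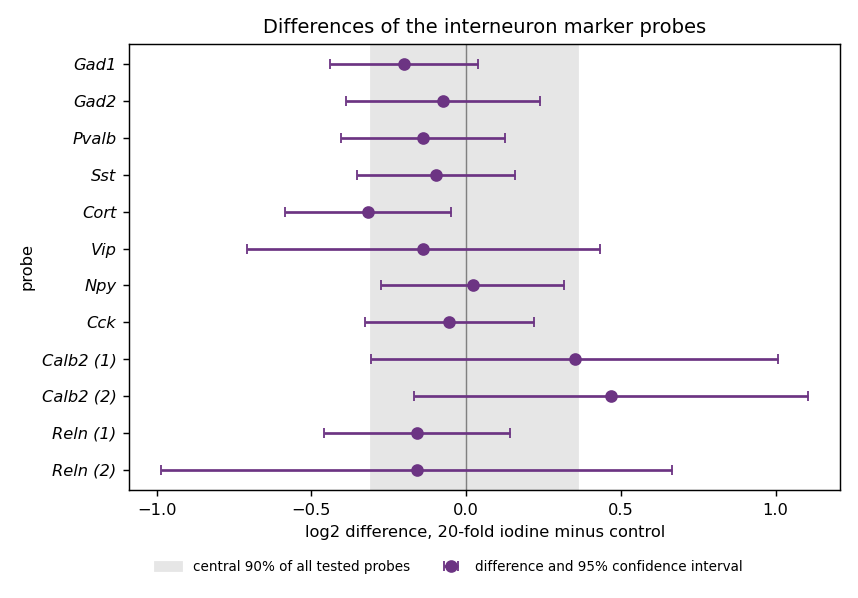
Log2 difference of 20-fold iodine minus control (horizontal axis) for each interneuron marker probe, as a point with its 95% confidence interval from limma on 2 arrays per group. The grey band holds the central 90% of all 38231 probes, from -0.31 to 0.36. Only the interval of Cort, unadjusted, lies wholly on 1 side of 0.

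Across the arrays, each gene's deviation from its mean of 4 arrays was taken with its brightest probe. The median deviation of the 10 genes was -0.09 and -0.04 in iodine replicates 2 and 3, against 0.09 and 0.01 in control replicates 2 and 3. Control replicate 2 was above the gene's mean in 9 of 10 genes and the highest array in 6 of them. The lowest array was iodine replicate 2 in 4 genes, iodine replicate 3 in 3, control replicate 2 in 1 (Npy) and control replicate 3 in 2 (Vip and Calb2). Gad1, Gad2, Pvalb, Sst, Vip and Reln had control replicate 2 highest, while Cort was highest in control replicate 3.

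Further genes of GABAergic cells were taken as 5 lists, of which 73 of 76 genes had signal (not Erbb4, Nkx2-1 and Cckar). None passed the adjusted threshold (0 of 73, smallest adjusted p = 0.522, limma), and at an unadjusted p under 0.05 there were 3 lower and 1 higher. The 3 lower genes were 4.11% of the 73, where 2.88% of all named genes were lower by their brightest probe. The 1 higher gene of the 73 stands against 3.48% of all named genes. Of the 73, 48 had a difference below 0 (65.8%, against 54.4% of all named genes), with a median of -0.07. Both iodine arrays were below both controls in 21 genes (28.8%, against 21.9% of all named genes) and above them in 10 (13.7%, against 17.9%).

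GABA synthesis, packaging, uptake and breakdown genes were lower in 6 of 7, with a median of -0.18, or -0.10 when all probes of a gene were averaged and -0.12 without control replicate 3. One of the 6, the transporter gene Slc6a13 (-0.27 ± 0.61, SE), is also in the meninges and fibroblast list, and the part of those cells in its value was not tested. Abat, which breaks GABA down, stood at 4.403 and 4.418 in iodine replicates 2 and 3, against 4.53 and 4.66 in control replicates 2 and 3, a difference of -0.18 ± 0.09 (SE, adjusted p = 0.623). Both iodine arrays were below both controls. A dimmer Abat probe had the other sign, at 0.20. Slc6a11, an astrocytic GABA transporter, had -0.26 ± 0.16 (SE, adjusted p = 0.692). Slc32a1, the transporter that loads GABA into vesicles, had -0.11 ± 0.11 and was added after its value was seen.

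Transcription factors of interneuron fate were lower in 11 of 18, with a median of -0.06 that was 0.003 without control replicate 2, -0.12 without iodine replicate 3 and -0.003 with normexp correction. Nr2f2, a factor of caudal ganglionic eminence cells, had -0.29 ± 0.12 (SE, adjusted p = 0.582), and Dlx2 -0.19 ± 0.14 (adjusted p = 0.726). Further subtype markers were lower in 18 of 30, with a median of -0.04 that was -0.01 without either iodine replicate, -0.02 without control replicate 2, -0.07 without control replicate 3 and -0.06 with centring on the median of detected probes. Cox6a2, a respiratory chain subunit enriched in parvalbumin cells, had -0.34 ± 0.11 (adjusted p = 0.536). Chrna2, a nicotinic receptor subunit of oriens-lacunosum moleculare cells, had 0.30 ± 0.09 (adjusted p = 0.533). Acan, the aggrecan of perineuronal nets, had 0.33 ± 0.13 (adjusted p = 0.566).

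Receptors of the members' peptides were lower in 8 of 11, with a median of -0.07 that was -0.12 without iodine replicate 2 or control replicate 3 and -0.03 with normexp correction. Sstr2, a somatostatin and cortistatin receptor, stood at -4.70 and -4.64 in iodine replicates 2 and 3, against -3.54 and -4.10 in control replicates 2 and 3. Its difference of -0.85 ± 0.21 (SE, adjusted p = 0.522) came from a dim probe whose controls lay farther apart than its iodine arrays. Sstr5 had 0.20 ± 0.08 (adjusted p = 0.565), with another probe at -0.06, and the neuropeptide Y receptor Npy5r -0.32 ± 0.12 (adjusted p = 0.568). Vipr2, a receptor of vasoactive intestinal peptide added after its value was seen, stood at -3.46 and -1.69 in iodine replicates 2 and 3, against -3.66 and -3.57 in control replicates 2 and 3, so its 1.04 ± 0.61 rests on iodine replicate 3.

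Reelin receptors and signalling genes were lower in 5 of 7, with a median of -0.11 that turned to 0.04 when all probes of a gene were averaged and was -0.004 without iodine replicate 3, -0.07 without control replicate 2 and -0.21 without iodine replicate 2. Pafah1b1, the lissencephaly gene, stood at 4.29 and 4.21 in iodine replicates 2 and 3, against 4.56 and 4.47 in control replicates 2 and 3, a difference of -0.26 ± 0.09 (SE, adjusted p = 0.538). The adaptor genes Crkl and Dab1 had -0.16 ± 0.10 (adjusted p = 0.682) and -0.13 ± 0.11 (adjusted p = 0.748), and other Dab1 probes gave 0.02 and 0.22. The reelin receptor genes, added after their values were seen, had -0.11 ± 0.12 (Vldlr) and 0.01 ± 0.09 (Lrp8).

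**Figure D3:**
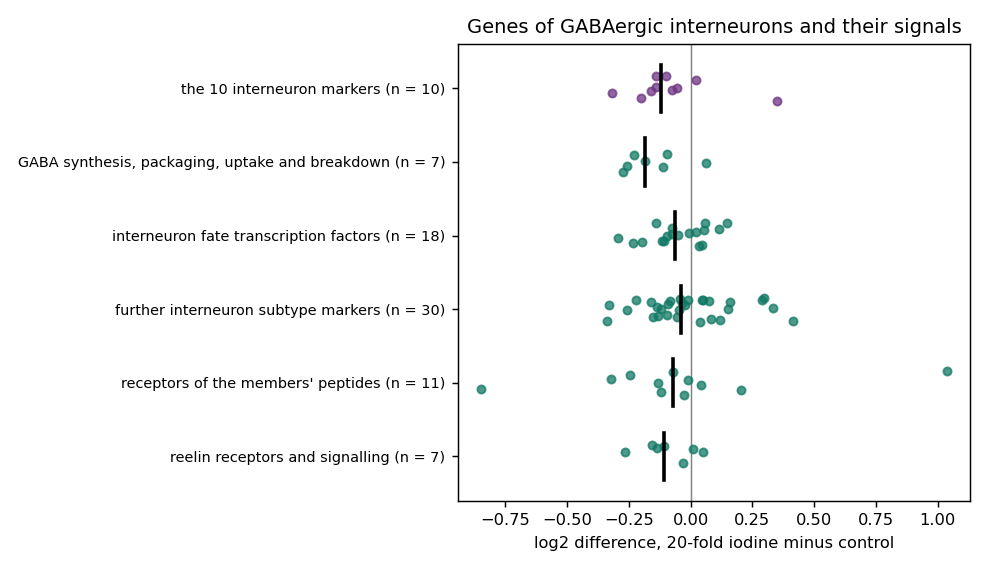
Log2 difference of 20-fold iodine minus control (horizontal axis) for the 10 interneuron markers and for 5 lists of related genes, 1 point per gene by its brightest probe, with a bar at each list's median. All 6 medians lie between -0.18 and -0.04, and the points far from 0 are the receptor genes Sstr2 on the left and Vipr2 on the right.

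Of the 73 list genes, those whose deviations on the 4 arrays were nearest to those of Gad1 were Pafah1b1, Crhbp, a corticotropin-releasing hormone binding protein, and Vipr1, another receptor of vasoactive intestinal peptide. Their mean absolute difference from Gad1 over 4 arrays was 0.03 for each. Their differences between groups were -0.26, -0.13 and -0.13. The deviations of Gad1 hold its own difference of -0.20, so values below 0 follow from the choice and are no separate result.

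Markers of other cell types were read on the same arrays. Hippocampal markers were present, with signal for 8 of 9 genes of CA1 to CA3 pyramidal cells and 6 of 6 of dentate granule cells. Medians of 14 lists, leaving out the interneuron members, ranged from -0.37 for choroid plexus genes to 1.70 for anterior pituitary genes. Among the pituitary genes were Cga at 1.43 ± 0.19 and Gh at 2.16 ± 0.31 (SE, adjusted p = 0.518 each). Choroid plexus genes, such as Folr1 (-0.51 ± 0.64) and Clic6 (-0.48 ± 0.82), varied most between the 2 iodine arrays, with median deviations of -1.25 and 0.94, against 0.24 and 0.15 in controls. Excitatory neuron genes had a median of -0.04 over 7, with 4 lower and 3 higher in iodine. Their median deviations were 0.14 and -0.08 in iodine replicates 2 and 3, against -0.12 and -0.002 in control replicates 2 and 3. Slc17a7, 1 of the 3 higher and added after its value was seen, had 0.40 ± 0.09 (SE, adjusted p = 0.518).

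Cajal-Retzius cells and some mossy cells also make Calb2. Without Calb2 and Reln, 5 of 5 Cajal-Retzius genes had signal and 5 of 5 were higher in iodine, with a median of 0.33 that is the value of Lhx5. Among all named genes, 54.4% had a difference below 0. Other lists also went 1 way: striatum genes were higher in 7 of 7 (median 0.16) and anterior pituitary genes in 4 of 4, while choroid plexus genes were lower in 8 of 8. Lhx5 was well above background on 2 of 4 arrays, so the other 4 Cajal-Retzius genes are described, a choice made after seeing the data. Those 4 were all higher, with a median of 0.38. Their median deviations were 0.04 and 0.35 in iodine replicates 2 and 3, against 0.04 and -0.31 in control replicates 2 and 3. By that median, iodine replicate 3 was highest and control replicate 3 lowest, as for Calb2. By gene, iodine replicate 3 was highest for each of the 4, but control replicate 3 was lowest only for Lhx1 and Ebf3. Nhlh2 was lowest on control replicate 2, and Trp73 (0.03 ± 0.10, SE) on iodine replicate 2. Lhx1 and Trp73 were added after their values were seen. Their summed linear signal, in units of the array's 75th percentile, was 0.692 and 0.801 in iodine replicates 2 and 3, against 0.696 and 0.527 in control replicates 2 and 3. Nhlh2, read by a dim probe, had 0.46 ± 0.11 (SE, adjusted p = 0.522), and Ebf3 0.62 ± 0.37 (adjusted p = 0.679), low on control replicate 3 alone.

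Mossy cell genes without Calb2 did not have the order of arrays of Calb2. All 3 had signal, 2 were lower in iodine, and the median was -0.08, which is the value of Drd2. Their median deviations were 0.03 and -0.05 in iodine replicates 2 and 3, against -0.06 and 0.07 in control replicates 2 and 3. Their summed signal was 2.36 and 2.16 on the iodine arrays and 2.12 and 2.34 on the control arrays. Drd2, like Lhx5, was well above background on 2 of 4 arrays. Of the other 2 genes, 1 was lower and 1 higher in iodine, with a median of -0.03. Median deviations of those 2 were 0.06 and -0.09 in iodine replicates 2 and 3, against -0.02 and 0.04 in control replicates 2 and 3.

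By their median, thalamus and habenula genes (10 of 11 with signal, not Gbx2) also stood highest on iodine replicate 3. Their median deviations were -0.38 and 0.51 in iodine replicates 2 and 3, against -0.03 and -0.29 in control replicates 2 and 3. Their summed signal was 39.2 and 47.1 on the iodine arrays and 45.5 and 34.8 on the control arrays, led by the brightest probe, Pou4f1. Pou4f1 stood at 4.57 and 4.16 in iodine replicates 2 and 3, against 4.66 and 4.23 in control replicates 2 and 3. Pou4f1, Synpo2 and Slc17a6, added after their values were seen, did not have iodine replicate 3 highest, while the other genes of this list with signal did. A highest median deviation on iodine replicate 3 was also found for choroid plexus genes (0.94) and brain endothelium genes (0.22). Meninges and fibroblast genes had it too, at 0.35 against 0.31 in control replicate 3. The other 9 members did not share the order of arrays of Calb2, and Reln had control replicate 2 highest. The part of any of these cell types in the Calb2 and Reln values was not tested.

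**Figure D4:**
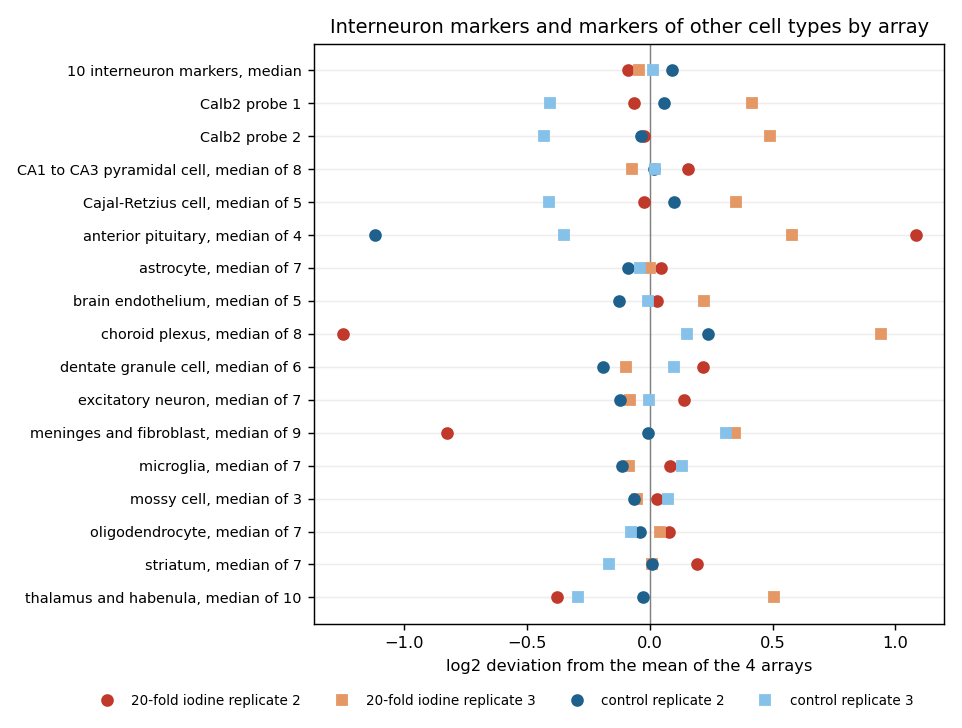
Log2 deviation from the mean of the 4 arrays (horizontal axis) for the median of the 10 interneuron markers, the 2 Calb2 probes and the median of each marker list without interneuron members, with 1 symbol per array. The interneuron medians lie between -0.09 and 0.09. Calb2 and the median of the Cajal-Retzius list, here with all 5 genes, both have iodine replicate 3 highest and control replicate 3 lowest.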

How the data were processed

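Each sample was read on 1 Agilent 1-colour array, and the authors deposited the scanner output. Per the file headers, its software was Feature Extraction 12.1.1.1 (Agilent). The intensity used is the processed signal, background-subtracted and detrended within the array per the file headers. The deposited flags (other values, 0 or 1) for outlier spots and for signal well above background were used as given.

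Spots of a probe were averaged on the log2 scale without outlier spots (47 to 70 per array), and the log2 75th percentile of non-control probes was subtracted. Of 56605 probes, the 38231 that cleared the background flag on 2 or more arrays were kept. The files hold no gene names. Transcript accessions were matched to the RefSeq table of GRCm38.p6, which named 58.3% of probes and all 180 listed genes. The array header names an older build, so no probe positions are given.

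Every kept probe was tested in R 4.3.3 by limma 3.58.1, with lmFit and a two-sided eBayes test of iodine minus control, with Benjamini-Hochberg adjustment over all of them. The step was tested on simulated data. Lists use each gene's brightest kept probe and are described by counts and medians. The members, lists and named-gene rule (the 10 members, the 3 smallest p per list, 2 genes of each of the 3 marker lists farthest from 0, and the 3 list genes nearest to Gad1 over the arrays) were chosen with earlier results of these data known. Of the genes the rule names, 2 are not reported here. Alternatives changed background correction, normalization, filter, variance model, probe choice and replicate block, or left out each array. A background of 1 probe per named gene, and marker lists limited to probes above background on all 4 arrays, were chosen after seeing the data. Slide as a block was not possible, with 1 slide.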

Additional observations from a re-analysis of the deposited data

How the results depend on the processing

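No member probe passed the adjusted threshold under any of the 13 alternatives, and 7 to 9 of the 10 genes were lower in iodine in each. The number of probes called among all was 25 with normexp correction (19 lower, 6 higher) and 53 with an intensity trend and robust variances (34 lower, 19 higher), against 0 otherwise. The cause was not tested. The median member difference ranged from -0.194 to -0.0654 when each array was left out in turn. These fits take the lone array of a group to have the spread of the pair in the other. Gad2 was 0.0028 to 0.024 without iodine replicate 2 or control replicate 2, and -0.17 at the other end of its leave-one-out range. Vip ranged from -0.40 to 0.12 and Cck from -0.15 to 0.039. Npy was -0.0045 with centring on the median of detected probes and -0.067 to 0.11 with an array left out. The dim Reln probe was 0.023 with normexp and -0.53 to 0.21 with an array left out. The other 7 member probes kept their sign throughout. The replicate block changed no call: 0 probes passed, and the median stayed at -0.12. Same-numbered samples did not deviate together (r = -0.02 over 38231 probes, 2 pairs), so the numbers are not taken to pair the samples. Signal near background limits the dim Reln and Sstr2 probes, and 2 arrays per group limit all values.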
